A study of Mus musculus with 6 samples.

Results

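Scavenger receptors are cell surface proteins that bind modified lipoproteins, bacteria and cell debris and carry them into the cell. In the liver they belong above all to Kupffer cells, the macrophages resident in the sinusoids, and to LSECs, the endothelium of those sinusoids. Scavenger receptors of class A are anchored trimers, and some of them have a collagenous stalk. Class B receptors cross the membrane at both ends and pass fatty acids or cholesterol, and lectin-like receptors of class E bind oxidized LDL.

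Here 6 such genes, matched by symbol, were read out of the 60832 genes of a count table. They were Marco, Msr1 and Colec12 of class A, Cd36 and Scarb1 of class B and Olr1 of class E. The table holds RNA-seq counts of mouse LSECs from liver metastases (CRCLM) grown in mice out of HCT116, an established human colorectal line. The 3 libraries of the sensitive group came from bevacizumab-sensitive xenografts and the 3 libraries of the resistant group from bevacizumab-resistant xenografts, and all cells had been cultured for 24 h. Bevacizumab is an antibody against human VEGF-A, and by the study's methods the resistant HCT116 tumors arose under weeks of intraperitoneal dosing, while control mice of that model received IgG. The labels do not give the strain, sex or age of the mice, while the study's methods list male BALB/c-Nu mice among its animals. LSECs were taken with anti-CD146 beads, and by the methods were checked by flow cytometry as CD146+ cells of high purity. Nothing in the labels says whether each library was a separate mouse, so p-values measure only the spread between these libraries, which may be technical.

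The libraries held between 17599326 and 20726684 counts. By expression, the 6 libraries labelled as LSECs carried much macrophage RNA. A list of 14 macrophage and Kupffer cell markers summed to between 19930 and 32356 CPM (read counts scaled to library size, normalized by the TMM method) in every library, whereas 11 LSEC markers summed to between 139.1 and 478.2 CPM and 9 pan-endothelial markers to between 36.2 and 385.4 CPM. None of these markers was at 0 in any library, and Mcam, which encodes CD146, was between 0.308 and 3.87 CPM. In bulk RNA, fewer cells of a type and less RNA per cell cannot be told apart. Replicate 2 of the sensitive group stood apart from the others, with a Pearson r of log2 CPM across genes between 0.860 and 0.901 in its 5 pairs against 0.954 to 0.974 in the other 10 pairs. It held the lowest value of the 6 libraries for 40.7% of all tested genes and the highest for 33.3%.

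**Figure D1:**
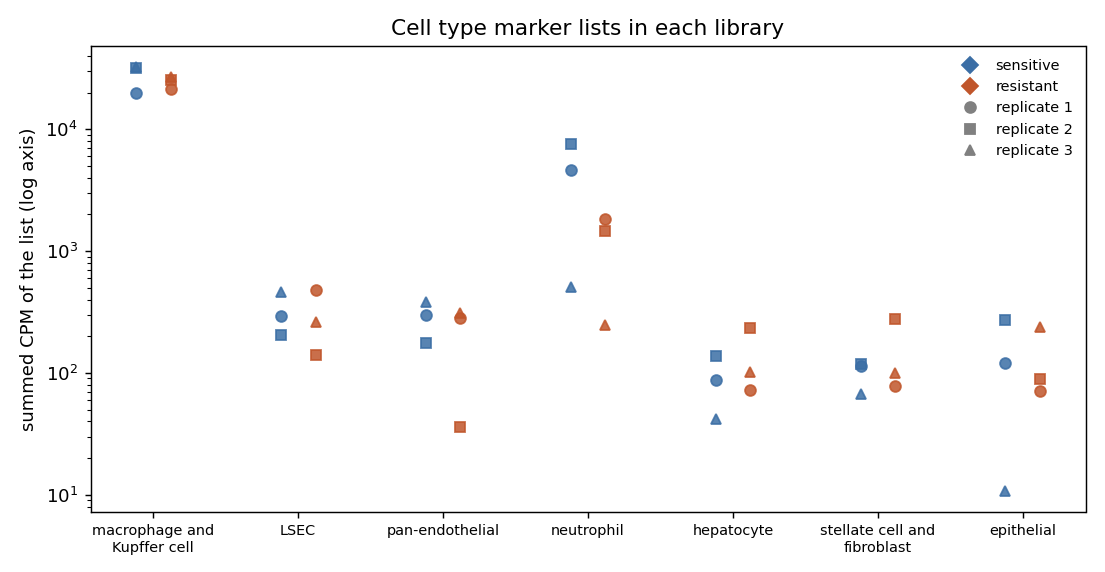
Summed CPM of 7 cell type marker lists (vertical log axis) in each of the 6 libraries, with color for the group and point shape for the replicate. The macrophage and Kupffer cell list lay above every other list in each library, and the neutrophil list ranged from 249 to 7545 CPM.

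RefSeq promoter windows were at hand for 3 of the 6 genes. The 250 bases before the annotated start are shown for Marco, the most abundant of the 6, and for Cd36, the most variable. Each reads 5′ to 3′ on the minus strand of GRCm38.p6. Marco is at chr1:120505025-120505274, and Cd36, for 1 of its annotated starts, at chr5:17835897-17836146. Capitals mark matches on either strand to any of the motifs GAGGAA (an ETS core of the kind PU.1 binds), AGGTCA (a nuclear receptor half-site), TGANTCA (an AP-1 site), TATAAA and CCAAT.
Marco: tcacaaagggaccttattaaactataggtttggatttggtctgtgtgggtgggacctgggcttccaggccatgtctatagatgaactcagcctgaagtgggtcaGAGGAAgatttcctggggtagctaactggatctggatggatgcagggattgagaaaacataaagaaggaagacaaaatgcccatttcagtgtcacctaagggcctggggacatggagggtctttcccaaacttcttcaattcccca
Cd36: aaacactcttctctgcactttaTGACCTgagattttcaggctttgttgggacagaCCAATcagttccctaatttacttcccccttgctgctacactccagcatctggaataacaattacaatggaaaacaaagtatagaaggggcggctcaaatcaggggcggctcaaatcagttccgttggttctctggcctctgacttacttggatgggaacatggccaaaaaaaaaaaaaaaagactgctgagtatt

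The Marco window held GAGGAA from 146 to 141 bases before the start, a motif found in 23.3% of the 32851 promoter windows of that length. In the Cd36 window, AGGTCA matched on the opposite strand (14% of windows hold it) and CCAAT on the same strand (33.8% of windows). The Olr1 window matched the same 3 motifs and also TGANTCA, which is in 6.75% of windows. No motif overlapped another in these windows, and such matches are descriptions of letters, not of binding.

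Per gene length, Marco dominated the receptors in all 6 libraries. Marco averaged 4519 ± 1593 FPKM (fragments per kilobase of gene length, scaled to library size; SD of 3 sensitive libraries) and 2963 ± 643 FPKM (SD of 3 resistant libraries). It made up between 88.5% and 98.3% of the summed FPKM of the 6 receptors. Its FPKM ranked between 4 and 12 among all genes of a library. Of the raw counts, Marco took from 0.428% (95% exact binomial interval 0.425 to 0.430%) in replicate 2 of the resistant group to 1.19% (1.19 to 1.20%) in replicate 2 of the sensitive group. These intervals cover counting error only.

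Below Marco, the FPKM order by the mean over the 6 libraries was Cd36 (108.1), Msr1 (71.2), Scarb1 (21.9), Colec12 (11.6) and Olr1 (2.79). Marco exceeded Cd36 at least 10.8-fold within every library. The order of Cd36 and Msr1 was not fixed, since the ratio of their FPKM ran from 0.204 to 3.84 across the libraries. Msr1 lay above Scarb1 in every library, by 2.21- to 5.21-fold. Scarb1 lay above Colec12 by only 1.12-fold in replicate 1 of the sensitive group and by up to 3.11-fold elsewhere, and between libraries the ranges of these neighbours overlapped. Colec12 was between 2.70- and 13.6-fold above Olr1.

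**Figure D2:**
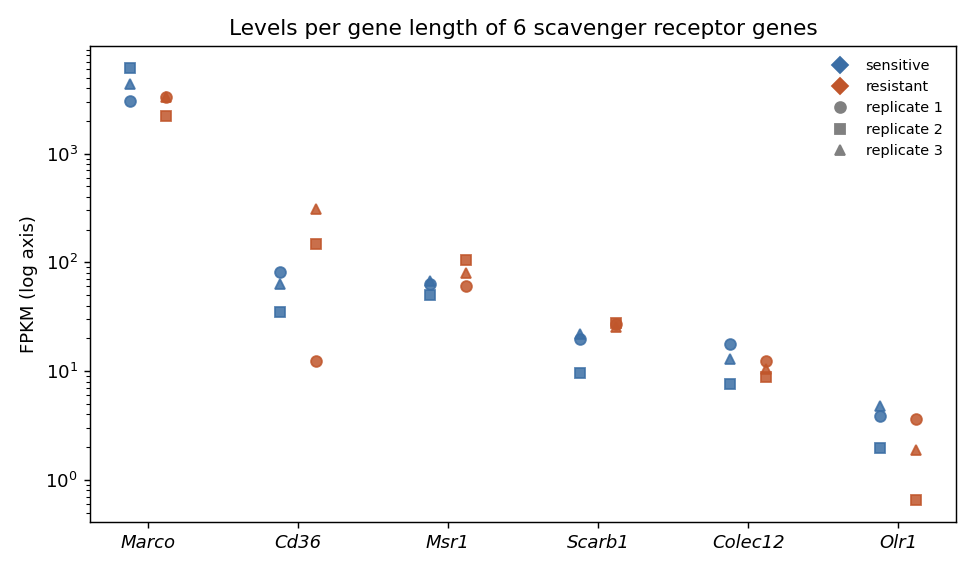
FPKM on a log axis of the 6 receptor genes, ordered by their mean, for each library, with color for the group and point shape for the replicate. Marco lay between 2221 and 6192 FPKM and Olr1 between 0.651 and 4.78, and Cd36 spread over the widest range, from 12.3 to 309 FPKM.

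The comparison of the resistant with the sensitive group asks whether the cells labelled as LSECs differed between resistant and sensitive tumors. None of the 6 receptors changed by edgeR's quasi-likelihood test at an adjusted p-value under 0.05 (0 of 6, where 0% of the 15474 genes tested were called), and 0 of 6 had an unadjusted p-value under 0.05, a level that 3.08% of all genes reached. With DESeq2's Wald test 0 of 6 were called, beside 0.155% of all genes. By that test 0 of 6 had an unadjusted p-value under 0.05, beside 732 of the 15474 genes. With limma-voom 0 of 6 receptors and 0 of the 15474 genes were called. Scarb1 alone of the 6 had an unadjusted p-value under 0.05 with limma-voom, as did 372 of the 15474 genes. Msr1, Cd36 and Scarb1 had positive and Marco, Colec12 and Olr1 negative log2 fold changes, with a median of 0.04 beside 0.01 over all genes. All 6 genes passed the filter on low counts. The adjusted p-value of each was 0.940, and all 6 of the 95% intervals of the log2 fold change below include 0.

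Marco, a class A receptor that clears bacteria and particles from blood (ENSMUSG00000026390, chromosome 1 of GRCm38, 120474538 to 120505024, minus strand), was the most abundant. Sensitive replicates 1, 2 and 3 held 5465, 13614 and 8411 CPM, and resistant replicates 1, 2 and 3 held 6037, 4342 and 6314 CPM. Replicates 2 and 3 of the sensitive group were above all resistant libraries, but replicate 1 lay within the resistant range, so the groups overlapped. The log2 fold change was -0.72 (standard error 0.383, 95% interval -1.62 to 0.19). Without replicate 2 of the sensitive group, the library that stood apart, it was -0.33, and without replicate 1 of that group -0.98. In replicate 2 of the sensitive group, where Marco was highest, 6 of the 14 macrophage and Kupffer cell markers had their highest value of the 6 libraries and 4 of 14 their lowest, and their sum of 31593 CPM was below the 32356 CPM of replicate 3 of that group. The summed neutrophil markers were highest in replicate 2 of the sensitive group, at 7545 CPM. In replicate 1 of that group they summed to 4622 CPM, with Marco at 5465 CPM. In its replicate 3 they summed to 506 CPM, with Marco at 8411 CPM. The part of the neutrophil markers in the Marco values was not tested.

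Msr1 encodes the macrophage scavenger receptor SR-A, which takes up acetylated and oxidized LDL (ENSMUSG00000025044, chromosome 8, 39581685 to 39642673, minus strand). Its values were 379.1, 361.5 and 434.4 CPM in the sensitive group and 358.0, 675.6 and 503.5 CPM in the resistant group. Here the sensitive libraries were close together, and replicate 1 of the resistant group was the lowest of all 6 while the other resistant libraries were the highest. The log2 fold change was 0.39 (standard error 0.273, 95% interval -0.26 to 1.03). It was 0.15 without replicate 2 and 0.60 without replicate 1 of the resistant group.

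Colec12, a collagenous receptor with a lectin domain that is known from endothelium (ENSMUSG00000036103, chromosome 18, 9707595 to 9882644, plus strand), had 144.1, 76.2 and 113.1 CPM in the sensitive and 101.8, 78.7 and 89.9 CPM in the resistant libraries. The resistant values all lay inside the sensitive range. Its log2 fold change was -0.30 (standard error 0.269, 95% interval -0.94 to 0.33). This value ranged from -0.07 without replicate 1 to -0.52 without replicate 2 of the sensitive group, so each of these libraries moved it by more than 1.5 times. The 9 pan-endothelial markers had log2 fold changes from -1.935 to -0.001. For 4 of 9 the groups did not overlap (beside 4.38% of all genes with the resistant group lower). All 9 markers had their lowest value in replicate 2 of the resistant group, as did 10.9% of all genes tested. Their summed level was 177.0 to 385.4 CPM in the sensitive and 36.2 to 310.1 CPM in the resistant libraries, and its part in the Colec12 values was not tested.

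**Figure D3:**
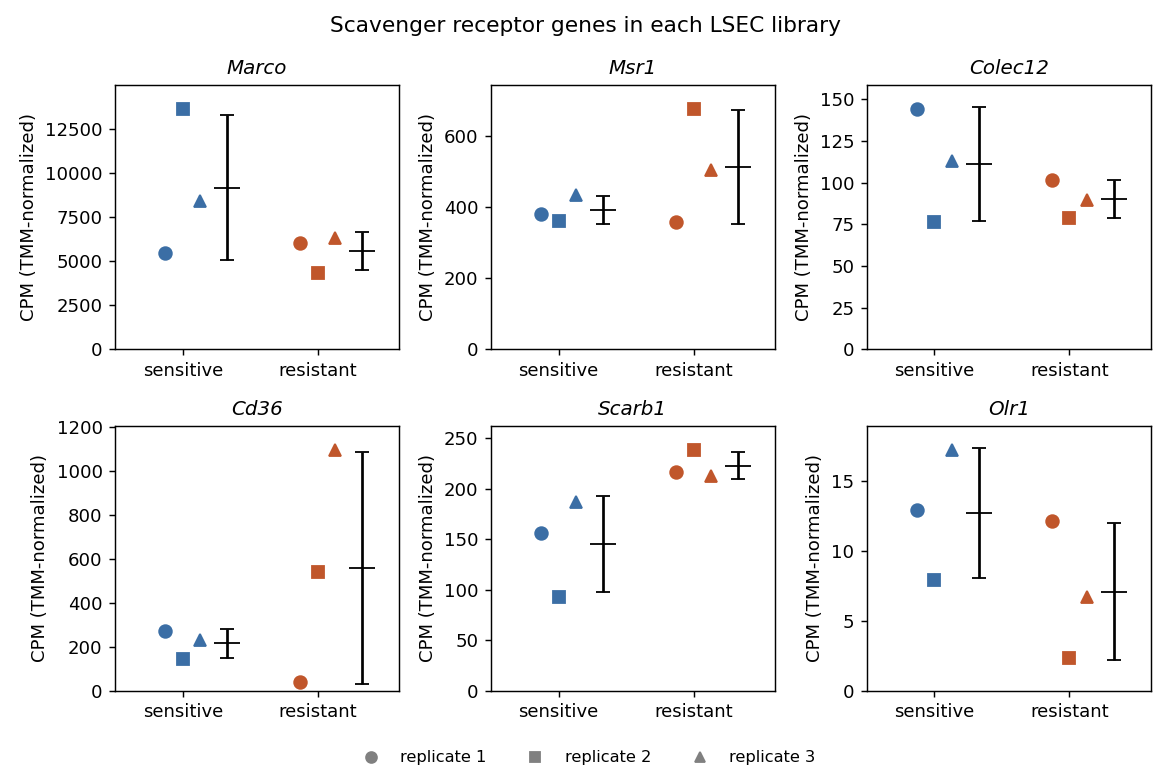
TMM-normalized CPM (linear axes from 0) of each receptor gene in the 3 sensitive and 3 resistant libraries, where point shape gives the replicate and the bar beside each group is the mean ± SD. The groups separate for Scarb1 alone, and the resistant libraries of Cd36 span 41.4 to 1094 CPM.

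Cd36, the class B receptor for oxidized LDL and long-chain fatty acids (ENSMUSG00000002944, chromosome 5, 17781690 to 17888801, minus strand), varied most of the 6. Sensitive replicates 1, 2 and 3 held 272.7, 143.5 and 229.5 CPM, and resistant replicates 1, 2 and 3 held 41.4, 539.4 and 1094 CPM. The resistant libraries thus held the lowest value and the 2 highest, and the sensitive libraries lay between them. Within the resistant group the highest library was 26.4-fold above the lowest, against 1.90-fold within the sensitive group. Of the 2082 genes with a mean of at least 100 CPM, 5 (0.240%, Cd36 included) had so large a ratio within the resistant group, where the median gene had 1.22-fold. The counting error is small against this, since the lowest library had 913 counts.

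The log2 fold change of Cd36 was 1.38 (standard error 0.934, 95% interval -0.83 to 3.58) and moved with single libraries and with the scale. It was 1.93 without replicate 1, when the groups no longer overlapped, and 0.44 without replicate 3 of the resistant group. With limma-voom it was 0.49, on log2(FPKM + 1) 0.56 and with scaling to the macrophage marker genes 1.636. In replicate 1 of the resistant group, where Cd36 was lowest, 3 of the 14 macrophage and Kupffer cell markers had their lowest value of the 6 libraries. The 14 markers summed to 21540 CPM there and to 25492 and 26953 CPM in replicates 2 and 3 of that group. Their lowest sum was 19930 CPM in replicate 1 of the sensitive group, where Cd36 was at 272.7 CPM. The part of the cell makeup in the Cd36 values was not tested.

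Scarb1 encodes SR-BI, the receptor for HDL that mediates selective cholesterol uptake (ENSMUSG00000037936, chromosome 5, 125277087 to 125341094, minus strand). It was the only receptor of the 6 whose groups did not overlap, with 156.7, 92.9 and 186.5 CPM in the sensitive and 217.1, 238.2 and 213.1 CPM in the resistant libraries. Every resistant library lay above every sensitive one, and the resistant libraries agreed within 1.12-fold of each other while the sensitive ones spread 2.01-fold. The exact permutation test over the libraries gave p = 0.1 (two-sided, n = 3 per group), the smallest that 3 against 3 allows. Of all genes tested 9.02% did not overlap between the groups, and 4.64% did not overlap with the resistant group higher, while 4.38% did not overlap with it lower. With 6 genes, 1 that did not overlap is not set apart from this background. The log2 fold change was 0.62 (standard error 0.279, 95% interval -0.04 to 1.28, unadjusted p = 0.0628 and adjusted p = 0.940 with edgeR). Without replicate 2 of the sensitive group, the lowest of the 6, it was 0.37, and the groups still did not overlap. SR-BI is also a hepatocyte receptor, and 8 hepatocyte markers, all with positive log2 fold changes, summed to between 41.6 and 136.8 CPM in the sensitive and between 72.3 and 232.2 CPM in the resistant libraries. Replicate 2 of the resistant group was highest for Scarb1 and for all 8 markers, but replicate 2 of the sensitive group, the lowest for Scarb1, had the next highest sum, at 136.8 CPM. Their part in the Scarb1 values was not tested.

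Olr1 encodes LOX-1, a lectin-like receptor for oxidized LDL (ENSMUSG00000030162, chromosome 6, 129485244 to 129507165, minus strand), and was the least abundant. Its values were 12.9, 7.92 and 17.2 CPM in the sensitive and 12.1, 2.36 and 6.66 CPM in the resistant libraries, from 46 to 351 counts. Replicate 1 of the resistant group lay between the sensitive libraries and replicates 2 and 3 below them. The log2 fold change was -0.84 (standard error 0.592, 95% interval -2.24 to 0.55). Leaving out replicate 1 of the resistant group moved it to -1.48, leaving out replicate 2 of that group to -0.42, and leaving out replicate 3 of the sensitive group to -0.56. Exact permutation tests (two-sided, n = 3 per group) gave p = 0.3 for Marco, p = 0.4 for Msr1, p = 0.5 for Colec12, p = 0.8 for Cd36 and p = 0.2 for Olr1.

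**Figure D4:**
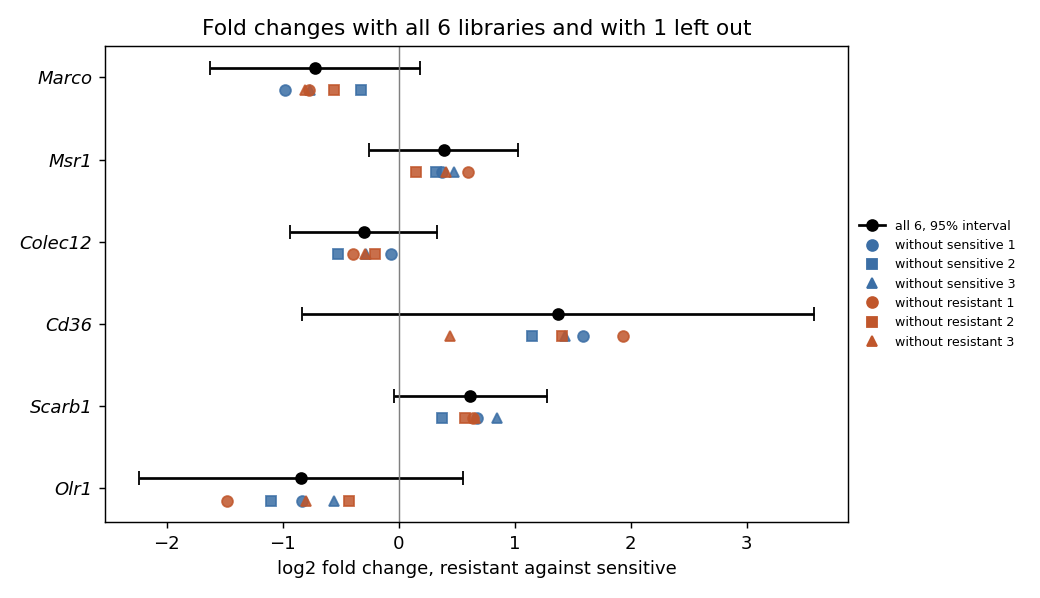
Log2 fold changes (horizontal axis, resistant against sensitive) of the 6 receptors from edgeR, as black points with 95% intervals for all 6 libraries and as colored points with 1 library left out. No colored point crosses 0, and Cd36 moves from 0.44 to 1.93.

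The receptors did not vary together. Over the 6 libraries, Pearson's r of log2 CPM between pairs of receptors ran from -0.843 for Marco and Scarb1 to 0.717 for Msr1 and Cd36. These are descriptions over 6 points, of which replicate 2 of the sensitive group is far from the rest. Msr1 and Cd36 were both highest in replicates 2 and 3 of the resistant group and lowest in its replicate 1. Colec12 and Olr1 (r = 0.702) were highest in replicates 1 and 3 of the sensitive group.

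The genes most like each receptor over the 6 libraries were sought among 5796 genes with an average log2 CPM of at least 5. For Marco these were Rnf185 (r = 0.988) and Arpc5 (r = 0.981), for Msr1 Sord (r = 0.999) and Ivd (r = 0.987), and for Colec12 Pacsin2 (r = 0.998) and Snrk (r = 0.969). Among those of Cd36 was Cgnl1 (r = 0.954). Scarb1 was most like Akr1b10 (r = 0.995) and Tbc1d9 (r = 0.992), and Olr1 most like Gpcpd1 (r = 0.986) and Ivns1abp (r = 0.981). Scarb1 had 625 genes with an r of at least 0.9 and Colec12 had 11, with 17 for Cd36, 26 for Olr1, 53 for Msr1 and 75 for Marco. The genes named are those with the highest of 5796 values over 6 points. How many would reach such an r by chance was not tested. Replicate 2 of the sensitive group was the lowest library for Scarb1 and for 40.7% of all genes tested.

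Other scavenger receptors were read from a list of 18 genes, of which 17 had a row and 15 were tested. None was called by edgeR at an adjusted p-value under 0.05, 7 had positive and 8 negative log2 fold changes, the median was -0.09 and 0 of 15 had groups that did not overlap, beside 9.02% of all genes. The highest by FPKM was Cd68, a lysosomal macrophage glycoprotein, at 1000, 701 and 1600 CPM in the sensitive and 1027, 1798 and 1440 CPM in the resistant libraries. Cd163, the hemoglobin-haptoglobin receptor, had 575, 375 and 2251 CPM against 1529, 1425 and 1251 CPM. Replicate 3 of the sensitive group was the highest and the other sensitive libraries the lowest.

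Mrc1, the mannose receptor that both Kupffer cells and LSECs use, had 663, 382 and 1199 CPM in the sensitive and 934, 557 and 578 CPM in the resistant libraries, and the groups overlapped. Clec7a, the beta-glucan receptor Dectin-1, was named after its values were seen as the 1 gene of the list with an unadjusted p-value under 0.05, a level that 3.08% of all genes reached (log2 fold change 0.76, standard error 0.30, adjusted p = 0.940 with edgeR), and its groups also overlapped. Stab1 and Stab2, receptors of class H, are in this list too. Stab2, a hyaluronan receptor of sinusoidal endothelium, is also an LSEC marker here.

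Genes that handle the lipid after uptake were equally without a call. Of 17 tested, 6 had positive and 11 negative log2 fold changes, with a median of -0.18, 0 passed an adjusted or unadjusted p-value of 0.05 with edgeR (3.08% of all genes passed the unadjusted level) and 0 had groups that did not overlap (9.02% of all genes). Apoe, the carrier of cholesterol out of macrophages, was the highest, with 9932, 45073 and 17109 CPM in the sensitive and 12086, 17457 and 15600 CPM in the resistant libraries. Replicate 2 of the sensitive group thus held the highest value of Apoe as it did of Marco. It was the highest library for 5 of the 17 genes, or 29.4%, and for 33.3% of all genes tested. Plin2, a lipid droplet coat protein, had 2597, 4339 and 2008 CPM against 1876, 2385 and 2263 CPM. Lipa, the lysosomal acid lipase that frees cholesterol from ingested lipoproteins, had 1226, 1045 and 1798 CPM in the sensitive and 1296, 1959 and 2162 CPM in the resistant libraries.

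Transcription regulators of scavenger receptor genes were likewise not called. With edgeR 0 of 17 had an adjusted or unadjusted p-value under 0.05, beside 0% and 3.08% of all genes. Of the 17, 13 had positive and 4 negative log2 fold changes, with a median of 0.19. Over all genes tested, 7848 were positive and 7611 negative. For 11 of 17 the lowest value was in replicate 2 of the sensitive group, the library that held the lowest value of 40.7% of all genes. Among the highest by FPKM were Cebpb and Spi1, which encodes PU.1, the factor that drives many macrophage genes. Spi1 had 372.4, 421.5 and 319.2 CPM in the sensitive and 413.2, 331.9 and 295.3 CPM in the resistant libraries, a narrow range next to that of Marco. Cebpb had 520.9, 830.3 and 308.6 CPM against 726.8, 435.8 and 357.1 CPM. The groups overlapped for both regulators.

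For 2 of the 17 regulators the groups did not overlap, both with the resistant group higher, as it was for 4.64% of all genes. Cebpa, a myeloid factor, had 265.4, 251.5 and 319.4 CPM in the sensitive and 339.7, 436.0 and 367.7 CPM in the resistant libraries (log2 fold change 0.45 with a standard error of 0.209, adjusted p = 0.940 with edgeR). Nr1h2 encodes the oxysterol receptor LXR beta and had 107.6, 87.2 and 111.3 CPM against 130.1, 117.1 and 115.7 CPM (log2 fold change 0.25 with a standard error of 0.189, adjusted p = 0.940 with edgeR).

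Signalling partners of the receptors included the toll-like receptors, Src family kinases, tetraspanins and integrins. Of 16 genes 15 were tested, 0 were called with edgeR, 8 had positive and 7 negative log2 fold changes and the median was 0.13. Cd14, the lipopolysaccharide coreceptor, was the only gene of the list whose groups did not overlap, with 109.6, 134.9 and 80.8 CPM in the sensitive and 214.4, 145.1 and 164.3 CPM in the resistant libraries (log2 fold change 0.69, standard error 0.263, adjusted p = 0.940 with edgeR). It was 1 of the 15 genes tested, and 4.64% of all genes did not overlap with the resistant group higher. Its unadjusted p-value was 0.0344, and 3.08% of all genes were under 0.05. Itgb2, the beta chain of the leukocyte integrins, was the highest by FPKM, at 868.3, 420.7 and 998.8 CPM in the sensitive and 932.1, 1017 and 894.0 CPM in the resistant libraries. The integrin chain Itgb1 had 447.3, 352.1 and 477.9 CPM against 428.9, 457.5 and 618.4 CPM. The groups overlapped for both genes. Pdzk1, the adaptor that holds SR-BI at the hepatocyte surface, had at most 3 counts in a library and was not tested.

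**Figure D5:**
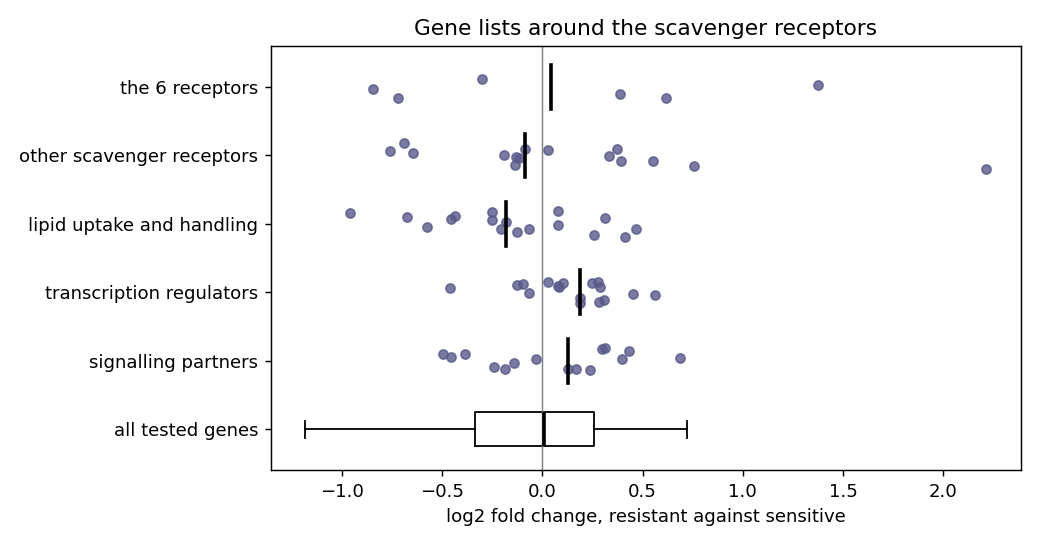
Log2 fold changes (horizontal axis, resistant against sensitive) of the tested genes of 5 lists, as points with the median as a black bar, above a box plot of all 15474 tested genes with whiskers from the 5th to the 95th percentile. The medians of the lists lie between -0.18 and 0.19.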

How the data were processed

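The authors aligned paired-end reads with HISAT2 2.0.5, counted them per gene with featureCounts 1.5.0-p3 and deposited whole-number counts for 6 libraries. They also deposited FPKM, which equals the count over the library total and 1 length per gene. The study's methods name poly(A) selection as well as depletion of ribosomal RNA. The submitters' processing notes name mm9, but 98.2% of the lengths implied by FPKM equal the summed exon length in GENCODE M21 (GRCm38) within 1 base, so positions are given in GRCm38. A table of the authors' own group means, fold changes and p-values was not used.

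Groups and replicates came from sample titles. Genes were kept by filterByExpr, normalized by TMM and compared with the quasi-likelihood test of edgeR 4.0.16 in R 4.3.3 (robust, no covariate, two-sided), with Benjamini-Hochberg adjustment over 15474 genes and a threshold of 0.05. Standard errors were taken from the fold change and its F statistic, and 2 was the prior count for log2 CPM. A group did not overlap when all its libraries lay beyond those of the other. Depth gave 3 counts between 0.145 and 0.1705 CPM. Libraries within a group differed by more than sampling noise (chi-square per gene 36.7 or more). The fit was tested on simulated data. Alternatives used DESeq2 1.42.0, limma 3.58.1, other scalings and filters, log2(FPKM + 1), a block for the replicate number, and fits without each library in turn.

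The 6 genes and all lists were chosen with earlier results of these data known. Named from each list were the 3 genes with the highest mean FPKM and up to 3 with the largest fold change among those whose groups did not overlap, and for each receptor the 2 genes with the highest Pearson r. Marker genes were named only as defining markers of a cell type. Some genes that this rule names are not reported here. Other genes are marked as named after their values were seen. Cd163l1 was not analysed here. Figures were drawn with matplotlib 3.10.9.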

Additional observations from a re-analysis of the deposited data

How the results depend on the processing

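All 90 log2 fold changes of the 6 receptors under 15 alternatives kept the direction of the value from all 6 libraries, and none passed the threshold, with adjusted p-values between 0.619 and 0.9999. The number of receptors called was 0 in all of them. The number of genes called was 0, but 24 with DESeq2's Wald test and 2 with no filter on low counts, and 0 in each fit without 1 library. The cause was not tested. The number of receptors whose groups did not overlap was 1, and from 1 to 4 without 1 library, where 12.6% to 26.7% of all genes did not overlap (4 receptors and 23.4% of genes without replicate 1 of the resistant group). Scaling to the macrophage marker genes moved the log2 fold change of the median gene by 0.26. On that scale Marco was at -0.43, Msr1 at 0.67, Colec12 at -0.06, Cd36 at 1.636, Scarb1 at 0.91 and Olr1 at -0.55. Cd36 was at 0.49 with limma-voom. In a fit with a replicate block, 0 genes and 0 receptors were called, Cd36 was at 0.79 and Olr1 at -1.06. Same-numbered libraries had deviations from the group means that correlated at -0.001, 0.034 and 0.194 across genes, so the numbers were not taken to pair the libraries. Depth limits Olr1, with 46 counts in its lowest library.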

Other observations

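Some other genes shared their lowest library with Cd36, though not its order of the other resistant libraries. These were named after their values were seen. Spp1, which encodes the secreted phosphoprotein osteopontin and was among the 5 genes with as large a spread in the resistant group, had 21.2, 816.5 and 341.8 CPM in its replicates 1, 2 and 3, and 81.6, 84.9 and 64.3 CPM in the sensitive group. Lpl, which encodes lipoprotein lipase, had 267.1, 824.0 and 667.7 CPM in the resistant and 550.7, 492.7 and 796.8 CPM in the sensitive libraries. For Fabp5, a fatty acid binding protein of macrophages, the values were 30.0, 145.4 and 88.3 CPM in the resistant and 76.7, 102.6 and 119.4 CPM in the sensitive libraries. In each of the 3 genes replicate 1 of the resistant group was the lowest of the 6 libraries, as it was for Cd36 and Msr1. It was the lowest for 5 of the 17 genes of lipid uptake and handling, or 29.4%, and for 9.69% of all genes tested.

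The other genes with a spread as large within the resistant group were Ms4a8a, Ngp and Lyve1. Ms4a8a had 513.1, 152.4 and 0.410 CPM in replicates 1, 2 and 3 of the resistant group, and 150.1, 148.0 and 1.08 CPM in those of the sensitive group. Replicate 3 was thus the lowest library of both groups. The neutrophil granule gene Ngp had 465.6, 146.3 and 11.2 CPM in the resistant group and 628.3, 867.4 and 25.4 CPM in the sensitive group, again lowest in replicate 3 of each. Lyve1, a hyaluronan receptor of sinusoidal and lymphatic endothelium, had 238.0, 8.58 and 127.2 CPM in the resistant and 61.3, 8.76 and 187.7 CPM in the sensitive group, lowest in replicate 2 of each. The labels do not pair the libraries of the same number.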
